A study of Homo sapiens with 6 samples.

Results

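The transmembrane mucins MUC1, MUC4, MUC12, MUC13, MUC15, MUC16, MUC17 and MUC20 were examined in BT-549 cells in which WDR5 was silenced. These 8 genes were chosen by name, and those whose mean normalized count reached 10 were described in full. Of the 8, 6 are among the 19792 genes of the deposited comparison and 2 (MUC15 and MUC17) had no row to analyse. MUC1 and MUC16 reached the minimum, whereas MUC4, MUC12, MUC13 and MUC20 did not.

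BT-549 cells are an established human line from a triple-negative breast cancer. All 6 cultures carried a single WDR5 shRNA in a tetracycline-inducible, puromycin-selected lentiviral vector. In 3 cultures the cells received vehicle (0.1% DMSO), and in 3 they received 500 ng/ml doxycycline (DOX) for 7 days, which switches the shRNA on. The sources used here do not say whether the transduced cells were 1 clone or a pool, and libraries of DOX-treated cells with a control shRNA were not analysed here, so silencing of WDR5 and exposure to DOX cannot be told apart. WDR5 itself, the targeted gene, fell by 2.88 on the log2 scale (standard error 0.08), to 13.6% of vehicle (95% interval 12.2% to 15.2%).

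Transmembrane mucins are large glycoproteins that line the apical surface of epithelia. Their extracellular part is densely covered with O-linked glycans that are started by GalNAc transferases, and a short cytoplasmic tail passes signals into the cell. MUC1 is cleaved as it is made into an extracellular subunit and a membrane-spanning subunit (MUC1-C), which stay together until the outer part is shed. The study is about MUC1-C and WDR5, an adaptor of the COMPASS complexes that methylate histone H3 at lysine 4. The comparison here asks what became of MUC1 and related transcripts when WDR5 was lowered. Transcripts were counted per gene, so MUC1 stands for all its isoforms and the 2 subunits share 1 transcript.

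MUC1 lies on the minus strand of chromosome 1 at chr1:155185824-155192916 (GRCh38, GENCODE 44), with 26 annotated transcripts and 8 exons in the canonical one. The RefSeq promoter window of the gene is shown because MUC1 is the only member whose transcript passed the test between the groups. It is on the minus strand at chr1:155192866-155193165 (GRCh38.p14), from 250 bases before the start site to 50 after it, and capitals mark matches to the motifs searched.
MUC1 promoter: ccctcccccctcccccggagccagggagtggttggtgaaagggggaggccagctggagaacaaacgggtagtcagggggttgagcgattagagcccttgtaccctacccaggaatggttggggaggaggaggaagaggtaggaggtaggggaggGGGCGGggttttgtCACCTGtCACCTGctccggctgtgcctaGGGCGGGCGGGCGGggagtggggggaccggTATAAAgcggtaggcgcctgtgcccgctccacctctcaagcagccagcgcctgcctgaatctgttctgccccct

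The window is 65.7% G or C. Motifs were searched on both strands. MUC1 has 1 match to the TATA box, TATAAA, which begins 24 bases before the start site (position -24). Of all 35116 windows, 11.5% hold one on either strand. The GC box, GGGCGG, occurs 4 times, at -96, -54, -50 and -46, of which the last 3 overlap by 2 bases each, and 45.0% of windows hold at least 1. The E-box CACCTG occurs 2 times, at -82 and -75, and 20.6% of windows hold it. The AP-1 letters TGANTCA (7.7% of windows) and the NF-κB consensus (11.3%) do not occur in this window. RefSeq lists a second MUC1 start 6 bases further downstream, which moves these positions to -30 for the TATA box. Windows of 6 of the 8 members were found in the table. None of those of MUC4, MUC12, MUC13 and MUC17 holds CACCTG, and TATAAA was found, apart from MUC1, in that of MUC12. Both windows of MUC16 hold CACCTG, and 1 of them also holds TGANTCA and the NF-κB consensus. TGANTCA occurs in the windows of MUC13 and MUC17 too.

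The level of MUC1 stood far above that of the other members. Its mean normalized count over the 6 libraries was 1718, which placed it 3717th of 19792 genes, and that of MUC16 was 11.0. MUC16 (CA125, a serum marker of ovarian cancer) has a canonical transcript of 43816 bases against 1811 for MUC1, so levels were also set per kilobase of the canonical transcript. On that scale the mean normalized count was 948 per kb for MUC1 and 0.251 per kb for MUC16. The other members lay between 0.0343 per kb (MUC4) and 0.601 per kb (MUC20). MUC1 was first on every length used, but the places of MUC20, MUC16 and MUC13 changed with the length and their order was not resolved.

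**Figure D1:**
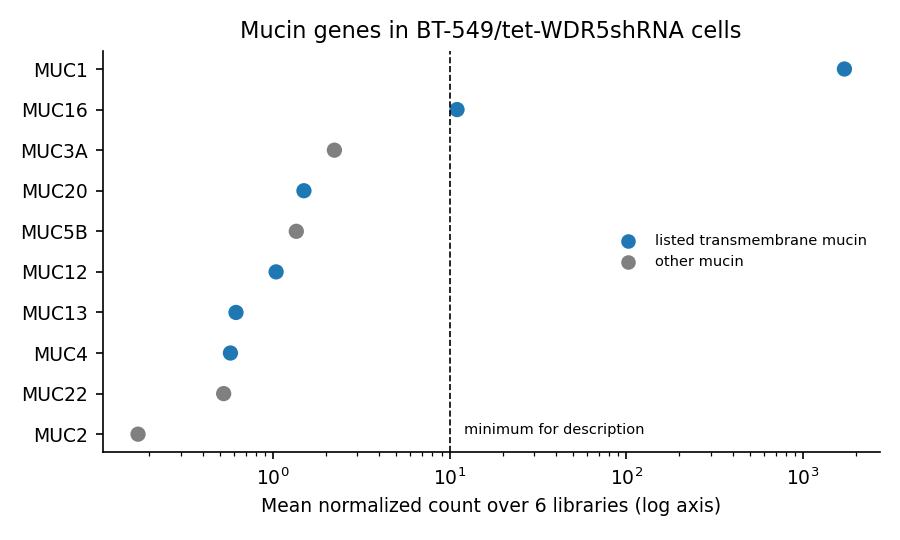
Mean normalized count over the 6 libraries (log axis, not divided by length) for the 6 transmembrane mucins with a row (blue) and for 4 other mucin genes (grey), with the minimum of 10 as a dashed line. MUC1 at 1718 is alone above 100, MUC16 at 11.0 lies just above the minimum, and all others are under it.

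The values of the members under the minimum rest on few reads. The lowest mean normalized counts in the deposited table take 6 values only, each shared by 165 to 257 genes, as 1 read in 1 of 6 libraries would give. They yield size factors from 0.737 to 1.34, so that the library with the largest factor was 1.82 times that with the smallest. With these 6 values, every one of the 439 distinct mean normalized counts under 1 had exactly 1 solution in whole reads. Those of MUC12, MUC20 and MUC16, which are above 1, had 1 solution each too. MUC4 was covered by 4 reads over all libraries (95% exact Poisson interval 1.09 to 10.2), MUC13 by 4 reads (1.09 to 10.2), MUC12 by 7 (2.81 to 14.4) and MUC20 by 10 (4.80 to 18.4). These intervals cover counting error only and overlap one another. MUC4 is a ligand-like partner of ERBB2, MUC13 is a mucin of the intestinal epithelium, MUC12 lies in the mucin cluster of chromosome 7 and MUC20 binds the receptor MET. No member of this group had more than 4 reads in any library, an adjusted p-value is not listed for any of them, and no fold change is given. MUC20 has a near-identical pseudogene copy (MUC20P1) and overlaps the transcript MUC20-OT1 on the same strand, and MUC12 is a tandem neighbour and paralog of MUC3A and MUC17, so their few reads are uncertain in origin too.

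MUC1 was lower with DOX. The mean normalized counts implied by its mean and fold change are 2099.6 with vehicle and 1336 with DOX (3 cultures each). The log2 fold change was -0.65 with a standard error of 0.07, and the adjusted p was 8.9e-21 (DESeq2's Wald test, adjusted over the 15954 genes with a listed adjusted p). This left MUC1 at 63.6% of vehicle (95% interval 58.0% to 69.7%). Values of single cultures were not analysed here, so whether the 2 groups overlap is not seen. The standard error is that of the fitted log2 fold change and does not show the spread of the 3 cultures of a group. In these bulk libraries, fewer cells with MUC1 and less MUC1 RNA per cell cannot be told apart.

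A lower level was common in this comparison. Of all genes with a listed adjusted p, 22.5% were lower at an adjusted p under 0.05 and 24.3% were higher. Among the 4225 genes with a mean normalized count within 2 times that of MUC1 (859 to 3435), 27.9% were lower at that threshold, so a call alone does not set MUC1 apart. A fall of this size was less common, since 3.91% of those 4225 genes had a lower log2 fold change. Among all genes with a listed adjusted p, whatever their level, the share was 12.8%. Rises of this size were not counted. The median standard error of the 4225 genes was 0.07, the same as that of MUC1 when rounded. The change was smaller in size than 1 on the log2 scale. Against the null hypothesis of a change of at most 0.5, MUC1 had an unadjusted p of 0.0239 and an adjusted p of 0.317 (DESeq2 estimates, Wald test).

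**Figure D2:**
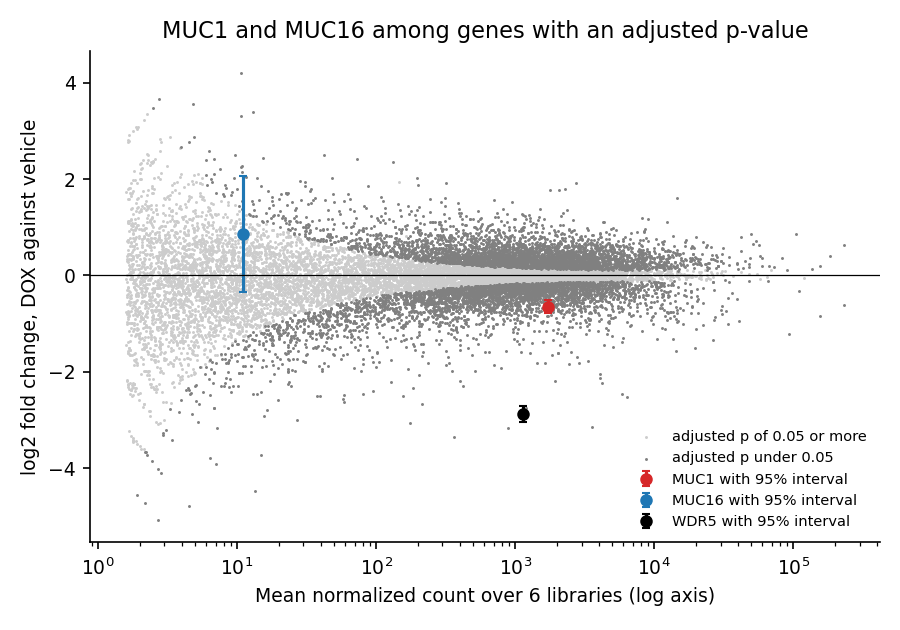
Log2 fold change of DOX against vehicle by mean normalized count (log axis) for every gene with an adjusted p-value, with the 95% intervals of MUC1 (red), MUC16 (blue) and WDR5 (black). MUC1 at -0.65 lies on the lower side of genes of its level, and the interval of MUC16 crosses 0.

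MUC16 did not pass the threshold. It lies on the minus strand at chr19:8848844-9010390, with 84 exons in the canonical transcript. It was covered by 69 reads in all, from 3 to 19 in a library, and each of the 6 libraries held some. Its log2 fold change was 0.86 with a standard error of 0.61 (adjusted p = 0.258, DESeq2). MUC16 thus stood at 181% of vehicle (95% interval 79.1% to 417%). At this standard error, the interval leaves out 100% only for a level under 43.6% or above 229.5%, and for MUC1 the same limits are 91.2% and 109.6%. A change of the size seen for MUC1 was thus not detectable for MUC16. Of the 2 members described, 1 was lower and neither was higher, beside 26.0% lower and 28.4% higher among genes with a mean of 10 or more.

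Markers of cell type were read next. The 6 mesenchymal genes listed (among them VIM and FN1) had mean normalized counts from 1262 to 47782. Of these, ZEB1 fell by 0.45 (standard error 0.06) and 4 rose, CDH2 (N-cadherin) by 0.85 (0.06). Among all genes with a mean of 10 or more, 26.0% were lower and 28.4% higher. With a mean of at least 50, 59.5% were called in either direction. The summed level of the 6 mesenchymal genes implied by the means and fold changes was 101608 with vehicle and 119570 with DOX. Of the receptors, ESR1 and PGR were at 0.790 and 0.801, and ERBB2 was at 1221 and rose by 0.45 (0.07). Of the 8 epithelial and luminal genes, 2 were under 10, EPCAM among them at 1.30, and the range was 1.30 to 435. Their summed level was 766 with vehicle and 1167 with DOX, a sum in which KRT18 (mean normalized count 435) and GATA3 (362) weigh most. These 2 genes rose, whereas CDH1, KRT8, KRT19 and CLDN4 had log2 fold changes below 0, so the sum does not stand for the whole list. Of the 8 epithelial genes, 2 fell and 3 rose, beside 22.5% and 24.3% of all genes tested. CDH1 (E-cadherin) fell by 0.68 (standard error 0.24) and CLDN4, a tight junction gene, fell by 0.93 (0.35), whereas KRT18 rose by 1.04 (0.10) and GATA3, a luminal transcription factor, by 0.64 (0.11). The fifth, GRHL2, rose on a mean normalized count of 6.27. Of the 5 markers of other cells, KRT14 and the leukocyte gene PTPRC rose, beside 24.3% of all genes tested. PTPRC rose by 0.83 (0.28) on a mean normalized count of 44.7. The other 4 of these 5 were under 10, and the summed level of the 5 was 42.7 with vehicle and 77.7 with DOX. The part of these genes in the MUC1 difference was not tested.

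Secreted mucins were barely seen. Of MUC2, MUC5AC, MUC5B, MUC6, MUC7 and MUC19, which form mucus gels or are secreted in saliva, 2 had a row. MUC2 was covered by 1 read and MUC5B by 9 reads over all 6 libraries. Of the other transmembrane mucins, MUC3A was covered by 12 reads and MUC22 by 3.

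Other membrane mucins and sialomucins, a list of 12 that holds MUC3A and MUC22 too, had 5 genes that reached the minimum. All 5 rose, with a median log2 fold change of 0.54 against 0.00 over the 13548 genes with a mean of 10 or more. Of those 13548 genes, 26.0% were called lower and 28.4% higher, which is the background for the counts that follow. Calls were more frequent among genes of higher level. Of the 4225 genes within 2 times the mean of MUC1, 1180 were lower and 1538 higher. PODXL (podocalyxin, an anti-adhesive protein) rose by 0.88 (standard error 0.07), to 184% of vehicle. CD164 (endolyn) rose by 0.54 (0.06). PODXL2 rose by 0.33 (0.07) and the adhesion molecule MCAM, which is not a classical sialomucin, by 0.26 (0.07). SELPLG, the ligand of P-selectin, rose by 1.48 (0.35) on a mean normalized count of 32.5. MUC1 and these genes thus stood on opposite sides of 0 in 1 comparison.

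The GalNAc transferases attach the first sugar of mucin-type O-glycans. Of 18 listed, 12 reached a mean normalized count of 10, and of these 1 fell, 6 rose and 5 did not pass the threshold (median log2 fold change 0.33). GALNT12 rose by 1.17 (standard error 0.10), to 225% of vehicle (95% interval 197% to 257.5%). GALNT10 rose by 0.61 (0.05) and GALNT7 by 0.55 (0.09). GALNT16 fell by 0.66 (0.11), to 63.1% of vehicle.

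Enzymes that extend or sialylate these glycans gave 2 decreases, 6 increases and 3 genes not called among 11 of 17 that reached the minimum (median log2 fold change 0.19). The decreases were those of C1GALT1, the core 1 enzyme, by 0.21 (standard error 0.05) and the sialyltransferase ST3GAL4 by 0.25 (0.08). GCNT1, which builds the branched core 2 structure, rose by 1.48 (0.17), to 278% of vehicle (221% to 349.9%). ST3GAL2, a sialyltransferase, rose by 0.57 (0.10). C1GALT1C1 (Cosmc), the chaperone of the core 1 enzyme, rose by 0.40 (0.06), and SLC35A1, the carrier of CMP-sialic acid into the Golgi, by 0.33 (0.09). The numbers called higher, 6 of 12 and 6 of 11, stand beside the 28.4% of genes with a mean of 10 or more.

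All 7 genes of shedding and its control reached the minimum, and 4 rose and none fell, beside 28.4% and 26.0% of genes with a mean of 10 or more. ADAM10, a membrane metalloprotease, rose by 0.33 (standard error 0.06), and MMP14 and ADAM9 rose by 0.15 (0.05) and 0.13 (0.05). TIMP3 rose most, by 1.18 (0.10), and encodes an inhibitor of such proteases rather than a sheddase. ADAM17, a sheddase of MUC1, had a log2 fold change of -0.12 (0.06, adjusted p = 0.0540 from DESeq2).

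**Figure D3:**
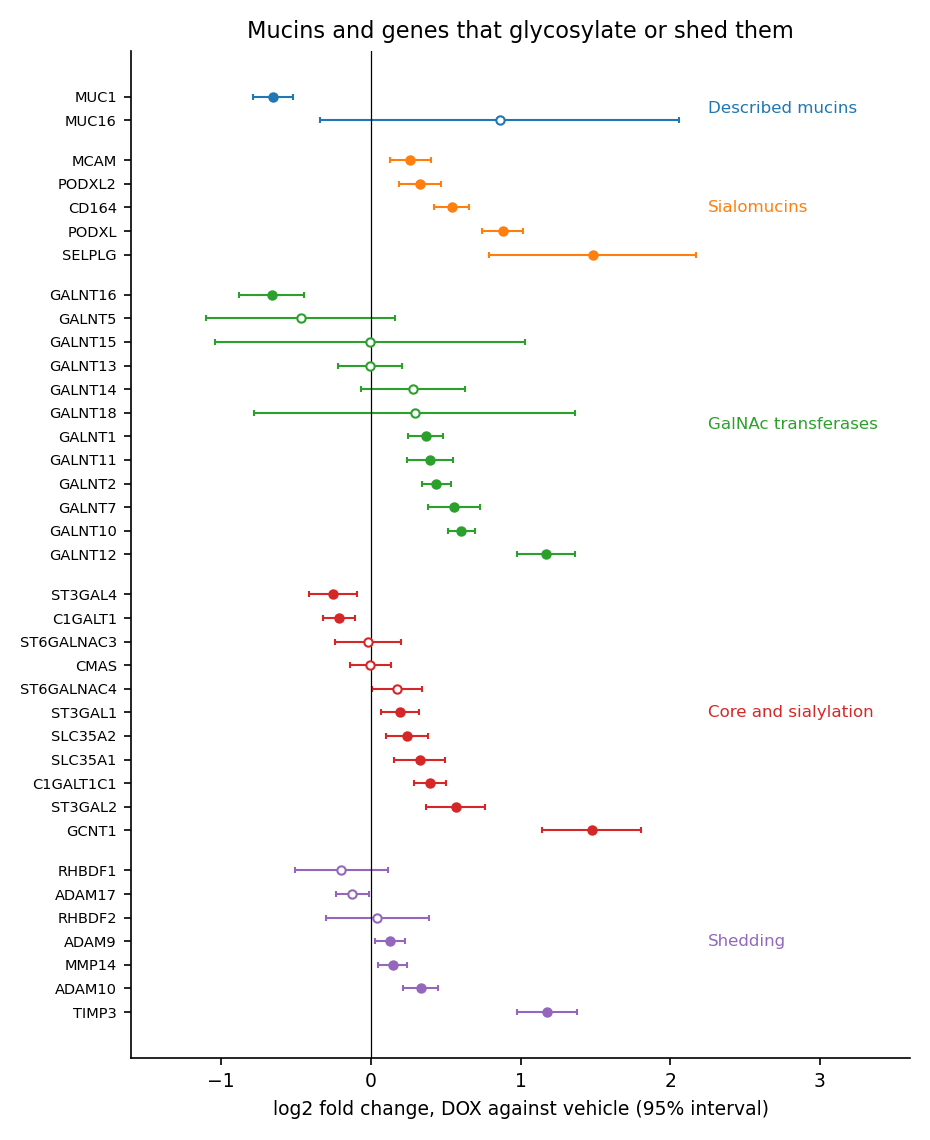
Log2 fold change of DOX against vehicle with its 95% interval for MUC1, MUC16, other membrane mucins and sialomucins, GalNAc transferases, enzymes of core extension and sialylation, and genes of shedding (genes that reached a mean normalized count of 10). Filled points have an adjusted p under 0.05 and open points do not. MUC1 at -0.65 and GALNT16 at -0.66 are the lowest points, while all 5 genes of the sialomucin list lie above 0.

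Genes of proteins that bind or phosphorylate the MUC1 tail were called in both directions. Of 28 listed, 25 reached the minimum, and 5 fell, 12 rose and 8 did not pass the threshold (median log2 fold change 0.17). The share lower (5 of 25) was near the background of 26.0%, and 12 of 25 higher stand beside 28.4%. Of the 4225 genes within 2 times the mean of MUC1, 1538 were higher. PRKCD, a protein kinase C, fell by 1.06 (standard error 0.14), to 48.1% of vehicle. LYN, a kinase of the SRC family, rose by 1.25 (0.07), the chaperone gene HSP90AA1 by 0.85 (0.04) and JUP (gamma-catenin) by 0.64 (0.11).

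A further list held 11 genes of the SET1 COMPASS complexes, NF-κB and PRC2, chosen around the study's subject. Of these, 5 fell, 4 rose and 2 were not called. WDR5, the target of the shRNA, is among the 5, and without it 4 of 10 fell and 4 rose, beside 26.0% and 28.4% of genes with a mean of 10 or more. The NF-κB genes NFKB1 and RELA fell by 0.72 (standard error 0.06) and 0.34 (0.06). The PRC2 genes EZH2 and SUZ12 fell by 0.34 (0.05) and 0.41 (0.06), whereas EED rose by 0.44 (0.08). Of the COMPASS genes other than WDR5, SETD1A rose by 0.30 (0.08), SETD1B by 0.66 (0.10) and DPY30 by 0.29 (0.08). RBBP5 and ASH2L had log2 fold changes of -0.07 (0.06, adjusted p = 0.430) and -0.01 (0.05, adjusted p = 0.920, DESeq2). MUC1 was left at 63.6% of vehicle and NFKB1 at 60.9%, with intervals that overlap (58.0% to 69.7% and 56.3% to 65.8%). GALNT16, of another list, stood at 63.1%, so a like level does not link 2 genes, and a link of MUC1 to NFKB1 was not tested.

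Genes around MUC1 were called at about the background share. Of the 21 other annotated names considered within 100 kb of MUC1, 13 have a row, and all 13 reached the minimum. Among them 3 fell, 4 rose and 6 did not pass the threshold, with a median log2 fold change of -0.04, beside 26.0% lower and 28.4% higher among genes with a mean of 10 or more. TRIM46, which runs toward MUC1 and ends 853 bases from it, rose by 0.43 (standard error 0.12). THBS3, 2672 bases away on the other side, had a log2 fold change of 0.08 (0.06, adjusted p = 0.326 from DESeq2), and KRTCAP2, 12349 bases away, of -0.04 (0.07, adjusted p = 0.633). The named genes with the largest changes in each direction were HCN3, which fell by 0.93 (0.14), and ENTREP3 (FAM189B in the table), which rose by 0.60 (0.07). SLC50A1 fell by 0.37 (0.07). A read-through gene of KRTCAP2 overlaps the 3′ end of MUC1 on the same strand, and reads in that overlap cannot be told apart.

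**Figure D4:**
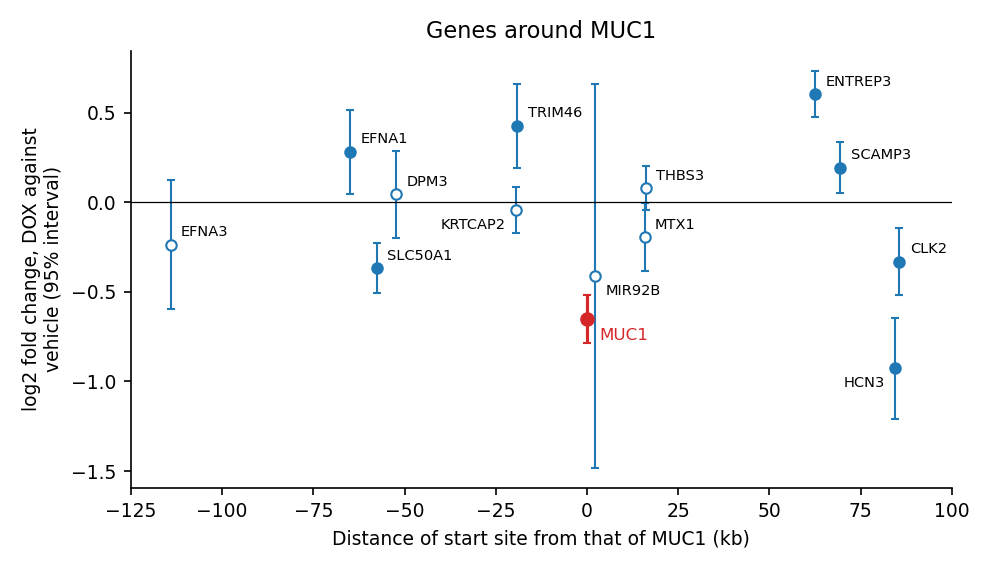
Log2 fold change of DOX against vehicle with its 95% interval for MUC1 (red) and 13 genes within 100 kb, by the distance of their start site from that of MUC1 in kb along the chromosome. Filled points have an adjusted p under 0.05. TRIM46 and THBS3, the protein-coding genes on either side, lie at 0.43 and 0.08, above MUC1 at -0.65.

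MUC4 and MUC20 lie next to each other on chromosome 3, at chr3:195746765-195811973 and chr3:195720884-195741123. Around them 4 of 15 other annotated names have a row, and 3 reached the minimum. None of the 3 was called by DESeq2's adjusted p or had an interval of the level that left out 100%. Among genes with a mean of 10 or more, 26.0% were called lower and 28.4% higher. MIR570, on a mean normalized count of 12.6, stood at 159% of vehicle with a wide interval (78.8% to 323%). TNK2, a kinase, stood at 111% of vehicle (94.8% to 130.0%) and the pseudogene SDHAP2 at 84.8% (67.8% to 106%).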

How the data were processed

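RNA-seq of 3 vehicle and 3 DOX cultures was analysed from the authors' deposited DESeq2 table, which has no column of a single sample. By the methods, libraries from a stranded mRNA kit were aligned with STAR to GRCh38. The feature counter, its use of strand and its filters are not given in the sources used here. RNA was extracted with a column kit by the sample records and with Trizol by the study's text. For each gene symbol the authors deposited a mean normalized count over the 6 libraries (a signal value), the log2 fold change with its standard error, the Wald score, and a p-value before and after adjustment. The direction, DOX over vehicle, is that of the table's name. These comparison columns are the authors' own results, and they are used here because nothing else describes the groups. The statistics and the Benjamini-Hochberg adjustment over 15954 genes were recomputed and agreed to rounding.

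Computed here were 95% intervals (1.96 standard errors), levels as percent of vehicle, implied group means, shrunken estimates (normal prior, SD 0.441), whole reads from the values left by single reads (tolerance 5e-12, tested on simulated data), and levels per kb. The simulated reads in a library were fewer than the most found for MUC16, so the simulation does not cover that gene. Genes were called at an adjusted p under 0.05. From each list, the 4 largest called changes with a mean of at least 10 were named, all members and all genes of the COMPASS, NF-κB and PRC2 list too. C1GALT1, ST3GAL4, MCAM, MUC2, MUC5B, MUC3A, MUC22, SDHAP2, TNK2, MIR570, ADAM17, THBS3, KRTCAP2 and the markers named were chosen after their values were seen. The members and lists were chosen with earlier results of these data known, and no set test was run. Neighbours were matched by symbol or, for ENTREP3, by a RefSeq synonym, and 2 names near MUC1 are not reported here. Protein sequences were not used here. Python 3.11.15, numpy 2.4.6, scipy 1.17.1, pandas 2.3.3 and GENCODE 44 were used.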

Additional observations from a re-analysis of the deposited data

How the results depend on the processing

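MUC1 was the only described member called, and this held with adjustment over every gene with a p-value, over genes with a mean of at least 10 or at least 50, with the Benjamini-Yekutieli method and after centring, where its adjusted p ranged from 3.9e-22 to 9.1e-20. The unadjusted p was 4.3e-22 for MUC1 and 0.160 for MUC16 (DESeq2's Wald test), so the choice of adjustment could not change either call. MUC16 was not in the test at a mean of at least 50. With a log2 fold change of at least 1 added, or in the Wald test against at most 0.5, 0 members were called. Under these settings 5.06% and 5.20% of all genes with a listed adjusted p were called. With a minimum of 50, MUC1 alone was described (1 member in place of 2). The log2 fold change of MUC1 was -0.67 after centring on the median of genes with a mean of at least 50 (0.02) and -0.64 after shrinkage, and that of MUC16 was 0.84 and 0.29. The level of MUC1 per kb was 3774 times that of MUC16 on the canonical transcript, 2869 times on the union of exons and 4763 times on the coding length. Of the 86 genes of all lists with a mean of at least 10, 15 were called lower and 41 higher. With the log2 fold change of at least 1 added these were 2 and 5, beside 5.06% of all genes in either direction. Without that addition, the share of all genes called rose from 46.8% to 54.4% and 59.5% at minima of 10 and 50. After centring, 1 gene of shedding (ADAM17) was lower in place of 0, and 3 were higher in place of 4. Centring also took the tail partners called higher from 12 to 10 and the genes near MUC1 called higher from 4 to 3, and the totals over all lists went to 16 lower and 37 higher. Whole reads per gene were derived after the values were seen. No paired analysis was possible because the table has no values of single libraries, and leaving out a culture was not run for the same reason. Depth limits the 4 members with 10 reads or fewer and MUC16.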
